A study of Mus musculus with 40 samples.

Results

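Wnt signalling was described here through 1 group of genes in the hearts of mice that make interleukin 11 (Il11) in their cardiomyocytes: the Wnt ligands, the R-spondins, the Frizzled and Lrp receptors, the secreted antagonists, and the feedback regulators and transcription factors of the pathway. The members are every listed gene whose name is Wnt, Fzd, Sfrp, Dkk or Rspo followed by a digit, together with *Frzb*, *Wif1*, *Axin2*, *Lrp5*, *Lrp6*, *Lef1*, *Tcf7*, *Tcf7l1*, *Tcf7l2*, *Nkd1*, *Nkd2*, *Znrf3* and *Rnf43*. The GENCODE annotation holds 54 protein-coding genes with these names, of which 34 were among the 17646 genes of the male table and 35 among the 17223 of the female table. *Wnt2* was listed in females only. All 34 and all 35 passed the filter on low values used for testing. Neither table listed *Lef1* or *Rnf43*, the ligands *Wnt1*, *Wnt3*, *Wnt3a*, *Wnt6*, *Wnt7a*, *Wnt7b*, *Wnt8a*, *Wnt8b*, *Wnt10a* and *Wnt16*, *Rspo2* to *Rspo4*, *Dkk1*, *Dkk2*, *Dkk4* or *Fzd10*, so no value is given for these 19 genes.

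PolyA RNA from the heart was sequenced as 1 library per mouse. CM-Il11-Tg mice carried 1 copy each of α-MHC-MerCreMer, a cardiomyocyte-driven Cre that tamoxifen activates, and of *Rosa26-Il11*, and received tamoxifen on consecutive days from 8 weeks of age. Hearts were taken 1, 3 or 6 weeks later (n = 4 for each week and sex, with 3 males at 6 weeks). Control mice (3 males and 4 females) were age-matched littermates with α-MHC-MerCreMer and without *Rosa26-Il11*, and they received tamoxifen as well. The labels call these controls WT and give them a single time point, baseline, so 1 control group per sex served all 3 weeks. A further group of CM-Il11-Tg mice (4 males and 4 females) received no tamoxifen and is called uninduced below. The labels give the tissue as heart, and the study's text describes left ventricle. All mice therefore carried the Cre, and the parent lines came from C57BL/6N and C57BL6/J backgrounds.

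Wnt ligands are secreted lipid-modified glycoproteins that bind Frizzled receptors. With the co-receptors Lrp5 and Lrp6 they stabilise beta-catenin, which enters the nucleus and acts with Tcf and Lef factors. Other ligands signal through Frizzled without beta-catenin. Secreted frizzled-related proteins (the Sfrp family and Frzb) and Wif1 bind Wnts outside the cell, and R-spondins raise receptor levels by restraining the ubiquitin ligases Znrf3 and Rnf43. *Axin2*, *Nkd1*, *Znrf3* and *Rnf43* are commonly read as transcriptional outputs of beta-catenin signalling. In the heart the pathway is best known from development and from fibroblasts and scar formation after injury, and it is low in the healthy adult ventricle.

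Values are in scaled CPM, read counts divided by a library factor set by the authors. Male libraries held 16663513 to 65333832 reads and female libraries 19147947 to 30929192. *Il11* itself was near 0 in controls, with a mean of 0.0867 ± 0.0769 CPM in males (SD, n = 3) and 0.0886 ± 0.0799 in females (SD, n = 4). It averaged between 421 and 570.3 CPM in the induced groups of males and between 463 and 494 in those of females. Uninduced hearts were not free of it, at 19.6 ± 2.89 CPM in males and 26.8 ± 15.1 in females (SD, n = 4 each). 2 male libraries whose labels contradict each other were left out. Placed by their descriptions they left most male results in place, whereas placed by their titles and tags they ended the male calls at 3 and 6 weeks. In addition, 2 female libraries stood apart: the 6-week replicate 2 and the 1-week replicate 2 held the atrial myosin light chains *Myl4* and *Myl7* at a sum of 729 and 119 CPM, whereas no other female library exceeded 3.14. The atrial genes *Sln* and *Bmp10* were not listed in that table. Results that rest on these 2 libraries are given with and without them.

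The upstream sequences of the 3 members with the smallest p-values among those that rose at least 2-fold in both sexes at 6 weeks and have an entry in the RefSeq promoter table (GRCm38.p6) are shown because these genes moved together. Entries for 24 of the listed members were found, with none for *Sfrp1*, *Sfrp4* or *Dkk3*. Capitals mark TTCNNNGAA, the letters bound by STAT factors, the family that acts downstream of the Il11 receptor. Each run covers the 250 bases before the start of the gene, on the gene's own strand.
Frzb, chr2:80447397-80447646, minus strand: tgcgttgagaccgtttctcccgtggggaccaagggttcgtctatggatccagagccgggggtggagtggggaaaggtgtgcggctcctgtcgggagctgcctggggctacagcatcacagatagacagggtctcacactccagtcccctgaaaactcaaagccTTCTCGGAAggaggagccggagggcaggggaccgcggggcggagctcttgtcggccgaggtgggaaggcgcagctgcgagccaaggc
Wnt4, chr4:137277385-137277634, plus strand: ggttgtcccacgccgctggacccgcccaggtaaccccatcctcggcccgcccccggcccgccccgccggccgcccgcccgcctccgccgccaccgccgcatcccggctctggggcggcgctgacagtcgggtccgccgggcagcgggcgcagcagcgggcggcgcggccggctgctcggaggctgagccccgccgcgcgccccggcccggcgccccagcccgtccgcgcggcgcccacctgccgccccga
Nkd2, chr13:73847632-73847881, minus strand: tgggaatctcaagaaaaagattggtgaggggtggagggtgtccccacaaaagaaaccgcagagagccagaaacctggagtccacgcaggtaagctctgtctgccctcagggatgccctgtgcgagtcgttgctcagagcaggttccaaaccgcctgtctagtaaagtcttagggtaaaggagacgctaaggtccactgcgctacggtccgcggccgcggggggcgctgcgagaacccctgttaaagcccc
The motif begins 87 bases before the *Frzb* start and is not in the other two windows. Among the promoters of the listed members, 6.9% of 29 held it (those of *Frzb* and *Wnt5b*), against 7.02% of all 32851 promoters in the table. The Tcf and Lef motif ATCAAAG, searched on both strands like the first, was in 6.9% of the members' promoters (*Wnt11* and *Wnt5b*) and in 3.21% of all promoters. Each of the members' shares rests on 2 genes.

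At 6 weeks secreted antagonists rose together. *Sfrp1*, *Sfrp2*, *Sfrp4*, *Frzb* and *Dkk3*, 5 of the 7 listed secreted antagonists, rose in both sexes, each by more than 2 on the log2 scale. They were joined by the ligand *Wnt4*, the R-spondin *Rspo1*, the receptors *Fzd1* and *Fzd9* and the intracellular antagonist *Nkd2*, while *Fzd4* and *Fzd6*, of which *Fzd4* was the member with the highest level per length in control hearts, fell. Fewer cells of a type and less RNA per cell cannot be told apart in such bulk tissue. In males 11 members rose and 5 fell out of 34 (limma, Benjamini-Hochberg adjusted p under 0.05), beside 16.2% of all 16931 tested genes that were higher and 10.9% that were lower. In females 15 rose and 3 fell out of 35, beside 21.7% and 21.0% of 16956 genes. With a log2 difference of at least 1 required, 10 members were higher and 2 lower in males, where 6.98% of all genes were higher and 1.52% lower. In females 10 were higher by that rule, where 7.87% of all genes were higher and 3.85% lower. The median log2 difference over the members was 0.20 in males and 0.45 in females, and that over all tested genes was -0.01 and -0.02.

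Rescaling every column to the same sum put the 6-week median log2 difference of all genes at 0.16 in males and 0.33 in females. The 6-week split then became 12 higher and 3 lower in males and 20 higher and 2 lower in females. Shares of all genes called under that scaling are not given, so these counts cannot be set against the background. Without the 2 female libraries that hold atrial transcripts, 14 female members were higher and 4 lower, beside 3184 and 2904 of all 16956 tested genes. Replicates are separate mice. A difference between the sexes was not tested, so a call in 1 sex alone does not show that the sexes differ.

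**Figure D1:**
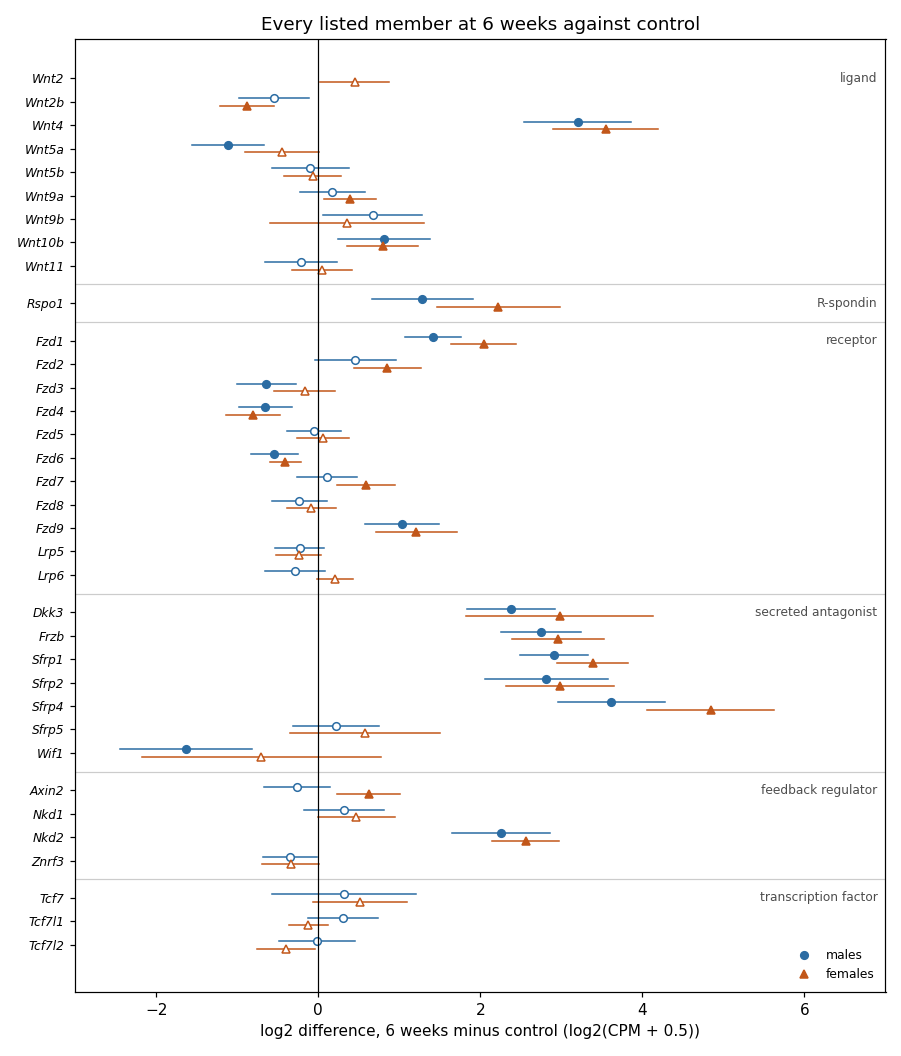
Log2 difference between 6-week CM-Il11-Tg and control hearts, on the log2(CPM + 0.5) scale, for every listed member, arranged by role. Points are limma estimates with 95% confidence intervals, circles for males and triangles for females, and filled points passed the test (adjusted p under 0.05). The antagonists other than *Sfrp5* and *Wif1* lie between 2.38 and 4.84, to the right of most receptors and ligands.

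Of the ligands, *Wnt4*, which acts through both branches of the pathway and is known from kidney and gonad development, rose furthest. It was at 0.112, 0.114 and 0.0814 CPM in male controls and at 6.53, 3.35 and 5.76 CPM at 6 weeks. Female hearts had 0.301, 0.145, 0.05003 and 0.0554 CPM in controls and 4.84, 6.75, 12.9 and 5.21 CPM at 6 weeks. The lowest 6-week heart was above every control in each sex. The log2 difference was 3.20 ± 0.32 (SE, adjusted p = 3.34e-07) in males and 3.55 ± 0.31 (SE, adjusted p = 1.54e-08) in females, on a scale with a pseudocount of 0.5 that understates changes of genes this low. *Wnt4* lies at chr4:137004373-137027037 (GRCm39).

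*Wnt10b*, a canonical ligand, rose from lower levels by 0.81 ± 0.27 (SE, adjusted p = 0.0315) in males, where the groups overlapped, and by 0.79 ± 0.21 (SE, adjusted p = 0.00509) in females, where they did not. The male call was lost when replicate 3 of every group was left out (0.68, adjusted p = 0.230) and likewise replicate 4 (0.71, adjusted p = 0.0745).

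*Wnt5a*, the best known ligand of the beta-catenin-independent branch, went the other way in males. It was at 10.3, 10.04 and 10.2 CPM in controls and at 4.05, 3.92 and 5.43 CPM at 6 weeks. The groups did not overlap, and it fell by 1.11 ± 0.21 on the log2 scale (SE, adjusted p = 0.000519). In females the controls were more spread, at 4.26, 6.87, 9.01 and 6.43 CPM, the 6-week hearts were at 4.004, 4.94, 4.99 and 4.44 CPM, and the difference of -0.45 ± 0.22 (SE, adjusted p = 0.102) did not pass. *Wnt2b* fell in females by 0.88 ± 0.16 on the log2 scale (SE, adjusted p = 0.000205), and in males its difference was -0.55 ± 0.21 (SE, adjusted p = 0.0539). The male difference passed in 5 of 17 alternatives (adjusted p from 0.0313 to 0.0482). These were a pseudocount of 2, median-of-ratios scaling, a replicate block, DESeq2, and the 2 conflicting libraries placed by their descriptions. *Wnt9a* differed in females by 0.39 ± 0.15 (SE, adjusted p = 0.0440) and in males by 0.17 ± 0.19 (SE, adjusted p = 0.544). The female call was lost without any 1 of the replicate numbers and in a limma fit of only the 2 groups (adjusted p = 0.0763). It was also lost by limma without the 2 female libraries with atrial transcripts (0.385, adjusted p = 0.0667).

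The remaining ligands did not pass the test at 6 weeks. *Wnt2*, a canonical ligand listed in females, was at 0.301, 0.0968, 0.2502 and 0.222 CPM in controls and 0.476, 0.945, 0.386 and 0.216 CPM at 6 weeks, a difference of 0.45 ± 0.20 (SE, adjusted p = 0.0806). *Wnt11* was at a mean of 4.67 ± 0.799 CPM (SD, n = 3) in male controls and 4.01 ± 1.09 CPM (SD, n = 3) at 6 weeks, and *Wnt5b* at 2.49 ± 0.725 CPM (SD, n = 3) and 2.23 ± 0.231 CPM (SD, n = 3). The exons of *Wnt5b* overlap those of *Fbxl14* on the opposite strand over 21.8% of their length, and the strand setting of the counting is not given in the sources used here. *Wnt9b*, known from valve and endocardial cells, was below 1 CPM in 18 of 18 male and 18 of 20 female libraries. The 2 exceptions, at 3.20 and 2.23 CPM, were the female libraries with atrial transcripts.

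*Rspo1*, the listed R-spondin, rose in both sexes. It was at 0.337, 0.189 and 0.391 CPM in male controls and at 2.09, 1.27 and 1.12 CPM at 6 weeks. In females the values were 0.215, 0.242, 0.3002 and 0.277 CPM in controls and 2.696, 2.88, 5.76 and 1.82 CPM at 6 weeks. In neither sex did the groups overlap. The log2 difference was 1.28 ± 0.30 (SE, adjusted p = 0.00330) in males and 2.22 ± 0.36 (SE, adjusted p = 6.08e-05) in females. Without replicate 1 the male difference of 1.11 no longer passed (adjusted p = 0.0601).

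**Figure D2:**
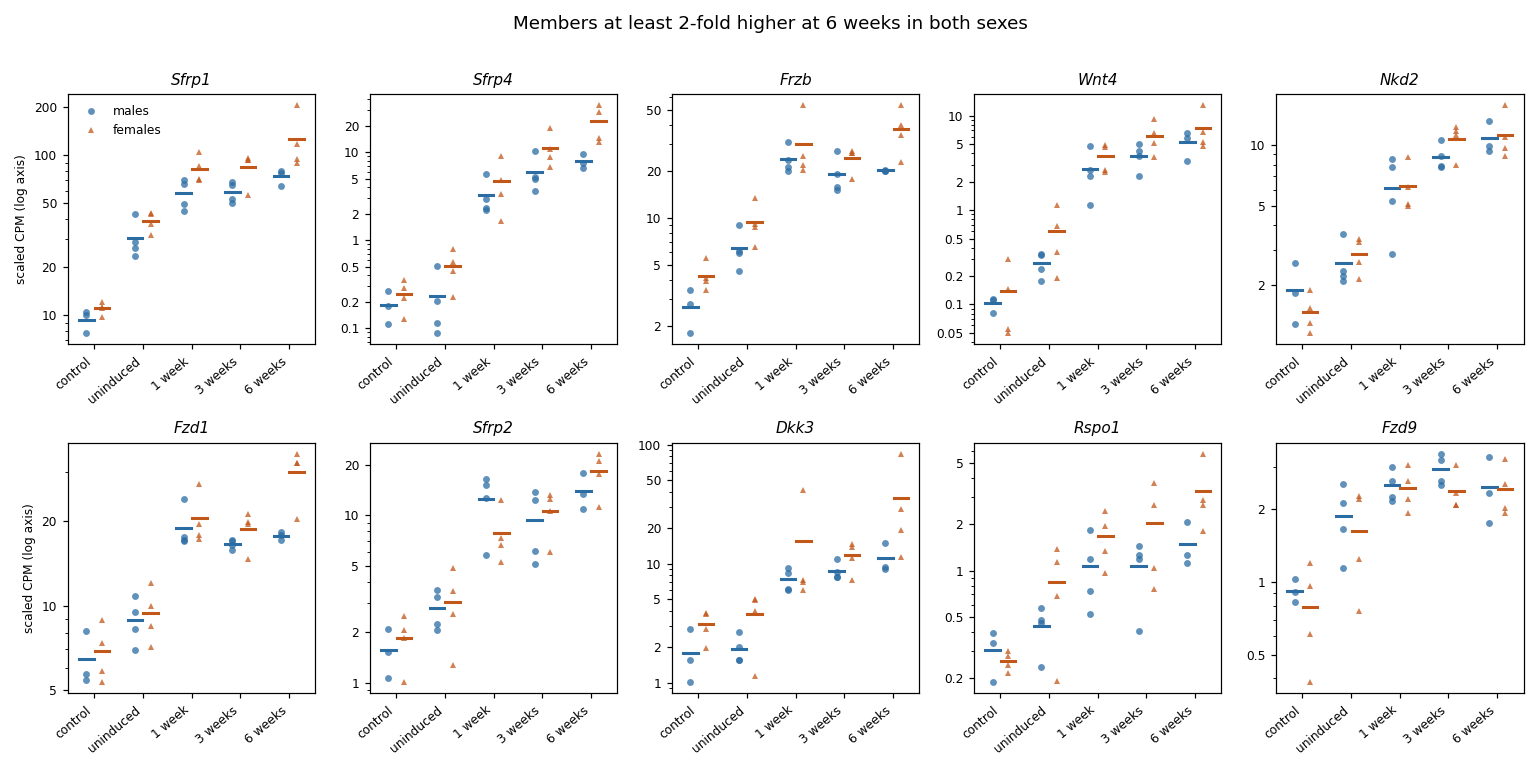
Scaled CPM (log axis) in every library of the 10 members that were at least 2-fold higher at 6 weeks in both sexes, by group, with circles for males, triangles for females and bars for group means. In each panel the 6-week hearts lie above all controls of their sex, and for *Sfrp1* the uninduced hearts lie between them.

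Among the receptors, *Fzd1*, a receptor of canonical Wnts, rose in both sexes and *Fzd4*, the receptor for Norrin that is central to vessels, fell. *Fzd1* (chr5:4803839-4808035) was at 5.73, 5.45 and 8.12 CPM in male controls and at 17.1, 17.8 and 18.3 CPM at 6 weeks. Among females it was at 5.86, 5.37, 8.905 and 7.37 CPM in controls and at 20.4, 34.8, 32.1 and 32.4 CPM at 6 weeks. Every 6-week heart had more than any control of its sex. The log2 difference was 1.41 ± 0.17 (SE, adjusted p = 2.84e-06) in males and 2.04 ± 0.19 (SE, adjusted p = 4.34e-08) in females.

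*Fzd9* (chr5:135277792-135280084), known from bone formation, was much lower, at 0.825, 0.909 and 1.03 CPM in male controls and 2.33, 1.76 and 3.31 CPM at 6 weeks. The female values were 0.388, 0.968, 1.201 and 0.6097 CPM in controls and 1.94, 2.02, 3.23 and 2.56 CPM at 6 weeks. The groups did not overlap in either sex, and the log2 difference was 1.03 ± 0.22 (SE, adjusted p = 0.00153) in males and 1.21 ± 0.24 (SE, adjusted p = 0.000424) in females.

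*Fzd4* was at 79.6, 96.4 and 102 CPM in male controls and 45.9, 65.2 and 66.7 CPM at 6 weeks. In females it was at 119.7, 93.2, 79.3 and 82.3 CPM in controls and 41.5, 46.4, 73.2 and 54.5 CPM at 6 weeks. No 6-week heart reached a control. It fell by 0.65 ± 0.15 on the log2 scale in males (SE, adjusted p = 0.00369) and by 0.80 ± 0.16 in females (SE, adjusted p = 0.000471).

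*Fzd6*, linked to planar polarity, was at 24.8, 24.01 and 25.8 CPM in male controls and 17.9, 16.9 and 16.1 CPM at 6 weeks, a difference of -0.54 ± 0.14 (SE, adjusted p = 0.00600). In females the values were 21.6, 21.8, 20.96 and 18.1 CPM in controls and 14.8, 16.1, 15.5 and 15.2 CPM at 6 weeks, a difference of -0.41 ± 0.09 (SE, adjusted p = 0.00161). The groups did not overlap, but with columns rescaled to the same sum the call was lost in both sexes (-0.35, adjusted p = 0.152 in males and -0.02, adjusted p = 0.893 in females). The summed level of 8 endothelial markers was 970 to 1101 CPM in male controls and 620 to 794 at 6 weeks, and 893 to 1033 and 581 to 789 in females. 3 of the 8 markers fell in males and 5 in females, beside 10.9% and 21.0% of all genes. The part of endothelium in the fall of *Fzd4* and *Fzd6* was not tested.

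The other receptors moved less or in 1 sex. *Fzd3*, known from axon guidance, fell in males by 0.64 ± 0.17 on the log2 scale (SE, adjusted p = 0.0101), a call lost without replicate 3 (adjusted p = 0.153) or 4 (adjusted p = 0.0611), with columns rescaled to the same sum (-0.48, adjusted p = 0.0850) and in a fit of only the 2 groups (adjusted p = 0.0527). In females *Fzd3* differed by -0.17 ± 0.18 (SE, adjusted p = 0.464), a value that became 0.15 with the rescaled columns. *Fzd2*, a receptor of both branches, rose in females by 0.85 ± 0.20 (SE, adjusted p = 0.00172), with a male difference of 0.46 ± 0.24 (SE, adjusted p = 0.168) that passed with rescaled columns (0.62, adjusted p = 0.0458). *Fzd7* rose in females by 0.59 ± 0.17 (SE, adjusted p = 0.00886), with a male difference of 0.11 ± 0.18 (SE, adjusted p = 0.700). *Fzd5*, *Fzd8* and the co-receptors *Lrp5* and *Lrp6* did not pass in either sex at 6 weeks. *Lrp5* averaged 86.7 ± 3.33 CPM (SD, n = 3) in male controls and 73.97 ± 7.92 CPM (SD, n = 3) at 6 weeks, and 67.02 ± 4.54 CPM (SD, n = 4) and 56.6 ± 5.91 CPM (SD, n = 4) in females.

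The secreted antagonists held 5 of the 10 members that rose at least 2-fold in both sexes. *Sfrp1* (chr8:23901263-23939648), which binds Wnts and Frizzled receptors, was at 7.76, 10.04 and 10.4 CPM in male controls and at 77.6, 79.4 and 64.4 CPM at 6 weeks. Female hearts had 12.1, 9.73, 11.1 and 11.2 CPM in controls and 89.3, 118, 205 and 94.6 CPM at 6 weeks. Every 6-week heart lay far above the highest control of its sex. The log2 difference was 2.91 ± 0.20 (SE, adjusted p = 2.33e-09) in males and 3.38 ± 0.21 (SE, adjusted p = 1.13e-10) in females.

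*Sfrp4* (chr13:19807274-19817164), known from bone and from fibrotic tissue, was almost absent from control hearts. It was at 0.112, 0.265 and 0.179 CPM in male controls and at 9.62, 6.67 and 7.58 CPM at 6 weeks. Among females it was at 0.129, 0.2903, 0.3502 and 0.222 CPM in controls and at 14.4, 34.1, 28.9 and 13.1 CPM at 6 weeks. The groups lay far apart, with a log2 difference of 3.62 ± 0.32 (SE, adjusted p = 5.56e-08) in males and 4.84 ± 0.38 (SE, adjusted p = 2.42e-09) in females. On this scale it was the largest difference among the members in both sexes, but by edgeR and DESeq2 on the recovered reads *Wnt4* was ahead in males, at 5.69 and 5.72 against 5.41 and 5.42 for *Sfrp4*.

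*Sfrp2* (chr3:83673481-83681623), a fibroblast product with a part in collagen processing, was at 2.099, 1.06 and 1.53 CPM in male controls and at 13.3, 17.8 and 10.9 CPM at 6 weeks. The female values were 2.497, 1.02, 1.85 and 2.05 CPM in controls and 11.1, 17.5, 23.1 and 21.02 CPM at 6 weeks. Neither sex showed an overlap, and the log2 difference was 2.82 ± 0.36 (SE, adjusted p = 8.34e-06) in males and 2.98 ± 0.32 (SE, adjusted p = 2.97e-07) in females. An unlisted gene on the opposite strand, *Gm26771*, overlaps 21.0% of the exon length of *Sfrp2*, so without a stated strand setting its reads could be included.

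*Frzb* (chr2:80242313-80278304), also called Sfrp3 and named for its Frizzled-like domain, was at 2.77, 1.82 and 3.44 CPM in male controls and at 20.4, 20.2 and 20.2 CPM at 6 weeks. In females it was at 4.09, 3.44, 5.55 and 3.94 CPM in controls and at 23.03, 53.3, 39.8 and 34.2 CPM at 6 weeks. No groups overlapped, and the log2 difference was 2.74 ± 0.24 (SE, adjusted p = 4.75e-08) in males and 2.96 ± 0.27 (SE, adjusted p = 3.2e-08) in females.

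*Dkk3* (chr7:111712904-111758760) is the divergent member of the Dickkopf family, and whether it inhibits Wnt signalling depends on the setting. It was at 1.54, 1.02 and 2.82 CPM in male controls and at 9.35, 14.97 and 8.96 CPM at 6 weeks. Female hearts had 3.79, 2.81, 1.95 and 3.83 CPM in controls and 11.5, 83.4, 28.9 and 19.3 CPM at 6 weeks, the value of 83.4 being the library with the most atrial transcript. Control and 6-week hearts did not overlap, and the log2 difference was 2.38 ± 0.26 (SE, adjusted p = 1.26e-06) in males and 2.98 ± 0.55 (SE, adjusted p = 0.000235) in females. Without the 2 female libraries it was 2.45 ± 0.36 (SE, adjusted p = 3.82e-05), with a 6-week mean of 19.9 CPM in place of 35.8.

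*Wif1*, Wnt inhibitory factor 1, was the antagonist that fell in males. It was at 2.21, 3.901 and 0.8304 CPM in male controls and at 0.146, 0.212 and 0.653 CPM at 6 weeks. The groups did not overlap, the fall was 1.63 ± 0.39 on the log2 scale (SE, adjusted p = 0.00374), and it no longer passed without replicate 3 (adjusted p = 0.125). In females *Wif1* was at 4.13, 2.61, 1.95 and 2.11 CPM in controls and at 0.912, 10.3, 0.421 and 0.432 CPM at 6 weeks. 3 of these 4 hearts were below every control and the atrial-transcript library was above all of them, so that the difference of -0.70 ± 0.71 (SE, adjusted p = 0.444) did not pass.

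Without the 2 libraries with atrial transcripts, *Wif1* fell in females too. The log2 difference from control was then -1.62 ± 0.34 at 1 week (SE, adjusted p = 0.00164), -0.92 ± 0.31 at 3 weeks (SE, adjusted p = 0.0313) and -1.54 ± 0.34 at 6 weeks (SE, adjusted p = 0.00162), a fit chosen after seeing the data. With all libraries the 1-week value was -0.79 ± 0.71 (SE, adjusted p = 0.443). In males, where *Myl4* was at most 2.58 CPM and *Myl7* was not listed, *Wif1* was below control at 1 week by 1.37 ± 0.36 on the log2 scale (SE, adjusted p = 0.00692) and at 3 weeks by 1.76 ± 0.36 (SE, adjusted p = 0.00141).

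The same 2 female libraries were the highest of all female libraries for *Wif1*, *Dkk3*, *Wnt9b* and *Sfrp5*. *Sfrp5* was at 3.52 and 2.46 CPM in them and at most at 1.98 in the others, and did not pass the test at 6 weeks in males (0.22 ± 0.25, SE, adjusted p = 0.552) or females (0.57 ± 0.44, SE, adjusted p = 0.310). *Dkk3* was at 83.4 and 41.5 CPM against at most 28.9 elsewhere. The part of atrial tissue in these values was not tested beyond leaving the libraries out.

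**Figure D3:**
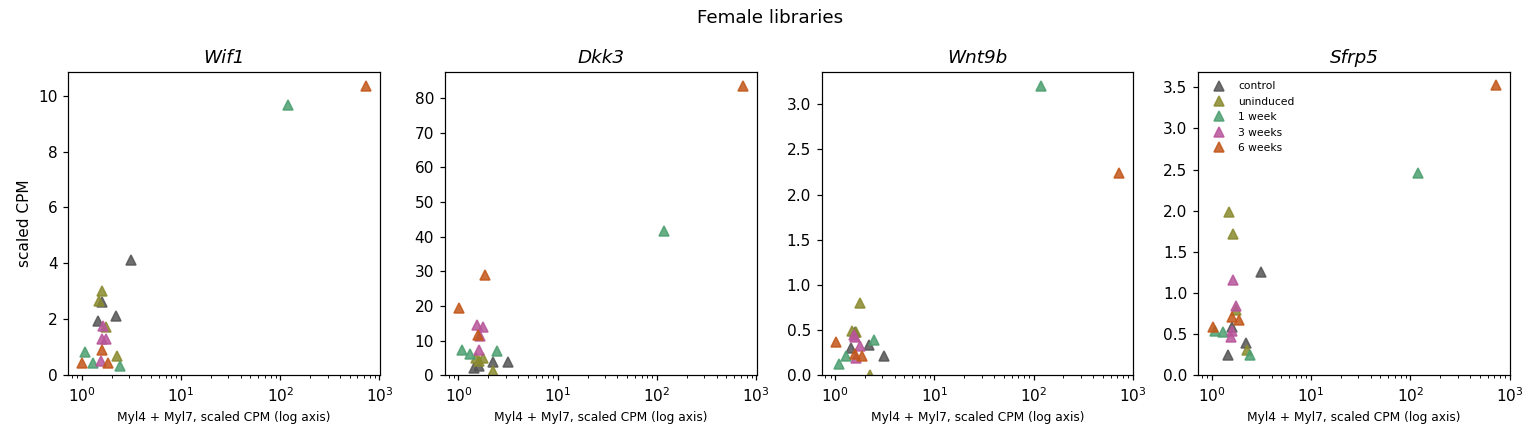
Scaled CPM of *Wif1*, *Dkk3*, *Wnt9b* and *Sfrp5* (linear axis) against the summed scaled CPM of the atrial genes *Myl4* and *Myl7* (log axis) in the 20 female libraries, coloured by group. The 1-week library at 119 and the 6-week library at 729 on the horizontal axis are the 2 highest in every panel.

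Fibroblast markers rose beside the Sfrp family. The summed level of 8 fibroblast markers was 738 to 1139 CPM in male controls and 4987 to 6988 at 6 weeks, and 889 to 1178 and 7030 to 12280 in females. 7 of the 8 rose in each sex. The 8 macrophage markers summed to 222 to 366 CPM in male controls and 867 to 1273 at 6 weeks, and 201 to 256 and 1061 to 1212 in females, with 7 and 8 of 8 higher. Mesothelial markers, at 5.71 to 10.96 CPM in sum in female controls and 15.4 to 84.3 at 6 weeks, rose there at 4 of 5 genes. In males they summed to 6.78 to 8.14 CPM in controls and 6.48 to 29.1 at 6 weeks, and all 5 missed the threshold. Of 8 markers of activated fibroblasts, 4 rose and 1 fell in males and 5 rose in females. These marker counts stand beside 16.2% of all genes higher and 10.9% lower in males, and 21.7% and 21.0% in females. The cardiomyocyte list summed to 50550 to 60420 CPM in male controls and 31850 to 42300 at 6 weeks, and to 33560 to 50550 and 29710 to 39150 in females. The part of these cell types in the Wnt genes was not tested.

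The listed feedback regulators, which with *Tcf7* served as readouts of the pathway, split. The readout *Nkd2*, which binds Dishevelled and restrains signalling, rose in both sexes. The readouts *Axin2*, *Nkd1* and *Znrf3* did not move together. *Nkd2* (chr13:73966653-73995761) was at 2.59, 1.29 and 1.84 CPM in male controls and at 9.96, 13.2 and 9.35 CPM at 6 weeks. Among females it was at 1.895, 1.16, 1.301 and 1.55 CPM in controls and at 8.84, 10.9, 15.8 and 9.65 CPM at 6 weeks. All 6-week hearts exceeded the controls, and the log2 difference was 2.26 ± 0.29 (SE, adjusted p = 8.3e-06) in males and 2.56 ± 0.20 (SE, adjusted p = 2.19e-09) in females.

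*Axin2*, the scaffold that most directly follows beta-catenin activity, was at 3.298, 3.45 and 3.14 CPM in male controls and at 2.09, 2.33 and 3.82 CPM at 6 weeks. The female values were 1.94, 2.76, 1.45 and 1.497 CPM in controls and 2.89, 3.82, 3.44 and 2.53 CPM at 6 weeks. The groups overlapped in both sexes. The log2 difference was -0.26 ± 0.20 (SE, adjusted p = 0.349) in males, with a 95% interval from -0.67 to 0.15, and 0.63 ± 0.19 (SE, adjusted p = 0.0110) in females, with an interval from 0.24 to 1.01. Female *Axin2* was also higher at 1 week (0.54 ± 0.19, SE, adjusted p = 0.0366) and at 3 weeks (0.69 ± 0.19, SE, adjusted p = 0.00740). The female 6-week call held in 14 of 16 alternatives, with differences from 0.41 to 0.95. It was lost without replicate 3 (0.50, adjusted p = 0.114) and, being under 1, with a minimum log2 difference of 1. Without the 2 atrial-transcript libraries the 1-week difference was 0.39 (adjusted p = 0.144) and the 6-week one 0.54 (adjusted p = 0.0288). Male *Axin2* passed as lower at 6 weeks when replicate 4 was left out (-0.52, adjusted p = 0.0499).

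*Nkd1* was at 1.24, 0.417 and 1.596 CPM in male controls and 1.65, 1.27 and 1.19 CPM at 6 weeks, and at 1.85, 1.84, 1.65 and 1.72 CPM and 2.02, 4.12, 3.51 and 1.57 CPM in females. It did not pass in males (0.32 ± 0.24, SE, adjusted p = 0.350) or females (0.47 ± 0.23, SE, adjusted p = 0.104), but with columns rescaled to the same sum female *Nkd1* passed as higher (0.79, adjusted p = 0.00716). *Znrf3*, the ligase that removes Frizzled from the cell surface, was at 4.68, 5.91 and 6.04 CPM in male controls and 3.74, 4.696 and 4.27 CPM at 6 weeks, and at 3.44, 3.58, 6.35 and 3.27 CPM and 3.21, 2.75, 3.58 and 2.81 CPM in females. The 6-week differences of -0.35 ± 0.16 (SE, adjusted p = 0.108) in males and -0.34 ± 0.17 (SE, adjusted p = 0.112) in females did not pass. The male one passed as lower with the 2 conflicting libraries placed by their descriptions (-0.36, adjusted p = 0.0482). The female value became 0.0098 with columns rescaled to the same sum. Male *Znrf3* fell at 1 week by 0.49 ± 0.15 on the log2 scale (SE, adjusted p = 0.0151) and at 3 weeks by 0.46 ± 0.15 (SE, adjusted p = 0.0307).

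The 3 listed transcription factors did not pass the test at 6 weeks on the deposited scale. *Tcf7*, also a T-cell factor, was at 0.412, 0.871 and 1.303 CPM in male controls and 0.874, 0.989 and 1.63 CPM at 6 weeks, and at 1.51, 0.629, 1.35 and 1.05 CPM and 1.62, 2.32, 1.97 and 1.33 CPM in females. Its difference was 0.32 ± 0.42 (SE, adjusted p = 0.620) in males and 0.51 ± 0.28 (SE, adjusted p = 0.144) in females, where it passed with columns rescaled to the same sum (0.79, adjusted p = 0.0201). Of the T-cell markers, 1 of 5 tested rose in males and 6 of 8 in females, and *Cd3d* and *Cd3e* were not listed in males. Of all genes 16.2% were higher in males and 21.7% in females, so the male count was near that share. *Tcf7l1* and *Tcf7l2*, the more abundant factors here, differed by 0.31 ± 0.21 (SE, adjusted p = 0.290) and -0.02 ± 0.22 (SE, adjusted p = 0.966) in males and by -0.12 ± 0.12 (SE, adjusted p = 0.411) and -0.40 ± 0.17 (SE, adjusted p = 0.0687) in females.

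**Figure D4:**
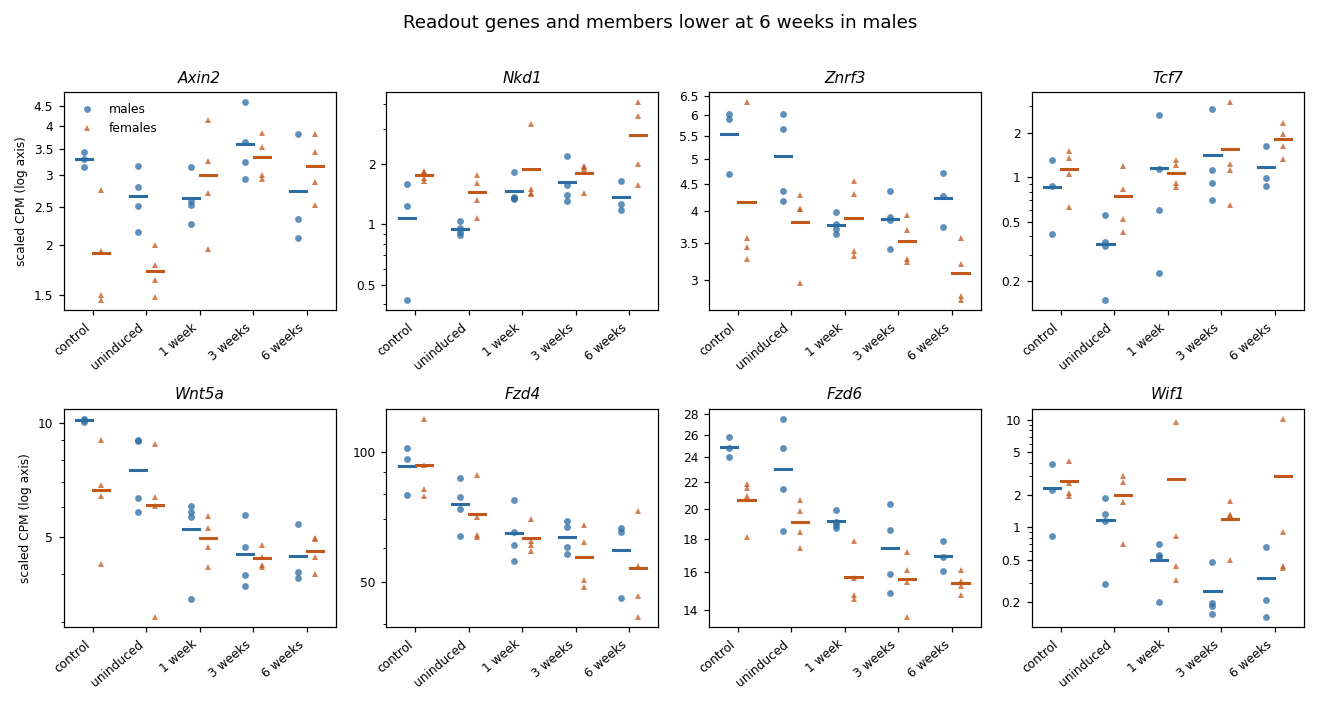
Scaled CPM (log axis) in every library of the outputs *Axin2*, *Nkd1*, *Znrf3* and *Tcf7* and of *Wnt5a*, *Fzd4*, *Fzd6* and *Wif1*, by group, with circles for males, triangles for females and bars for group means. The 6-week hearts overlap the controls for *Axin2* in both sexes and lie below them for *Fzd4* and *Fzd6*, and single female libraries at 9.67 and 10.3 CPM set the means of *Wif1*.

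Levels per kilobase of exon were used to compare genes with one another. In control hearts *Fzd4* was the highest member, at 13.5 CPM per kb in males (range 11.6 to 14.9, n = 3) and 13.7 in females (11.6 to 17.5, n = 4). *Lrp5* followed at 8.82 (8.43 to 9.08) and 6.82 (6.37 to 7.32), without overlap with *Fzd4*, and *Fzd6* at 3.63 (3.50 to 3.76) and 3.01 (2.64 to 3.18), without overlap with *Lrp5*. *Tcf7l1* and *Lrp6* came next, with ranges that overlapped each other in both sexes and, in females, both overlapped that of *Fzd6*. *Sfrp1* was the sixth at 1.95 (1.61 to 2.15) and 2.29 (2.02 to 2.51), below both in males and overlapping *Lrp6* in females. At 6 weeks *Sfrp1* was the highest, at 15.3 CPM per kb in males (13.3 to 16.5) and 26.3 in females (18.5 to 42.6), above *Fzd4* at 8.65 (6.70 to 9.73) and 7.87 (6.06 to 10.7) in each case without overlap. In females *Frzb* (10.4, 6.4 to 14.8) and *Sfrp2* (7.92, 4.84 to 10.1) overlapped *Fzd4*.

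The Wnt genes had already changed at 1 week. In males 11 rose and 8 fell at 1 week, beside 18.9% of all genes higher and 14.6% lower, and 10 rose and 5 fell at 3 weeks, beside 13.2% and 8.10%. In females 11 rose and 3 fell at 1 week, beside 15.3% and 13.1%, and 11 rose and 5 fell at 3 weeks, beside 16.8% and 14.5%. With columns rescaled to the same sum the splits were 13 higher and 3 lower at 1 week and 13 and 2 at 3 weeks in males, while all 17 female calls at 1 week and all 15 at 3 weeks were higher. Under that scaling the median log2 difference of all genes was 0.33 and 0.23 in males and 0.28 and 0.30 in females. The shares of all genes called under it are not given, so these splits cannot be set against the background. Without the 2 libraries with atrial transcripts 10 female members were higher and 3 lower at 1 week, beside 2210 and 1709 of all 16956 genes. At 3 weeks 12 were higher and 7 lower, beside 2887 and 2434. The comparisons of the 3 weeks share their controls. *Sfrp1* was at 66.5, 69.7, 49.6 and 45.02 CPM in males at 1 week and at 70.1, 104, 85.1 and 70.6 CPM in females, each above all controls, and the difference from control was 2.54 ± 0.19 (SE, adjusted p = 6.31e-09) and 2.83 ± 0.21 (SE, adjusted p = 3.23e-09). *Frzb* was at 30.9, 21.2, 19.9 and 23.8 CPM in males and 20.2, 53.1, 25.1 and 21.9 CPM in females at 1 week, with differences of 2.96 ± 0.22 (SE, adjusted p = 7.43e-09) and 2.59 ± 0.27 (SE, adjusted p = 3.66e-07).

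Between 1 and 6 weeks *Sfrp4* went on rising in females, from 1.64, 9.11, 4.89 and 3.34 CPM to 14.4, 34.1, 28.9 and 13.1 CPM, by 2.23 ± 0.38 (SE, adjusted p = 0.00282), with no overlap. It was the 1 female member called in that comparison (0.891% of all genes were higher and 0.142% lower). In males *Sfrp4* was at 2.21, 5.58, 2.93 and 2.32 CPM at 1 week and at 9.62, 6.67 and 7.58 CPM at 6 weeks, and the difference of 1.24 ± 0.30 (SE, adjusted p = 0.109) did not pass. No male member passed by limma, where 0.130% of all genes were higher and 0.0354% lower at the adjusted threshold. None passed by edgeR's quasi-likelihood test, and 1 did by DESeq2. By limma 7 of 34 had an unadjusted p under 0.05, and the share of all genes at that unadjusted threshold is not given. *Wnt4* and *Nkd2* differed between 6 and 1 week by 0.90 ± 0.30 (SE, adjusted p = 0.201) and 0.86 ± 0.27 (SE, adjusted p = 0.192) in males and by 0.86 ± 0.31 (SE, adjusted p = 0.244) and 0.80 ± 0.20 (SE, adjusted p = 0.0526) in females. Without the 2 atrial-transcript libraries female *Nkd2* passed as higher in that comparison (0.97 ± 0.21, SE, adjusted p = 0.0317), as did *Sfrp4* (2.36 ± 0.36, SE, adjusted p = 0.00158).

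**Figure D5:**
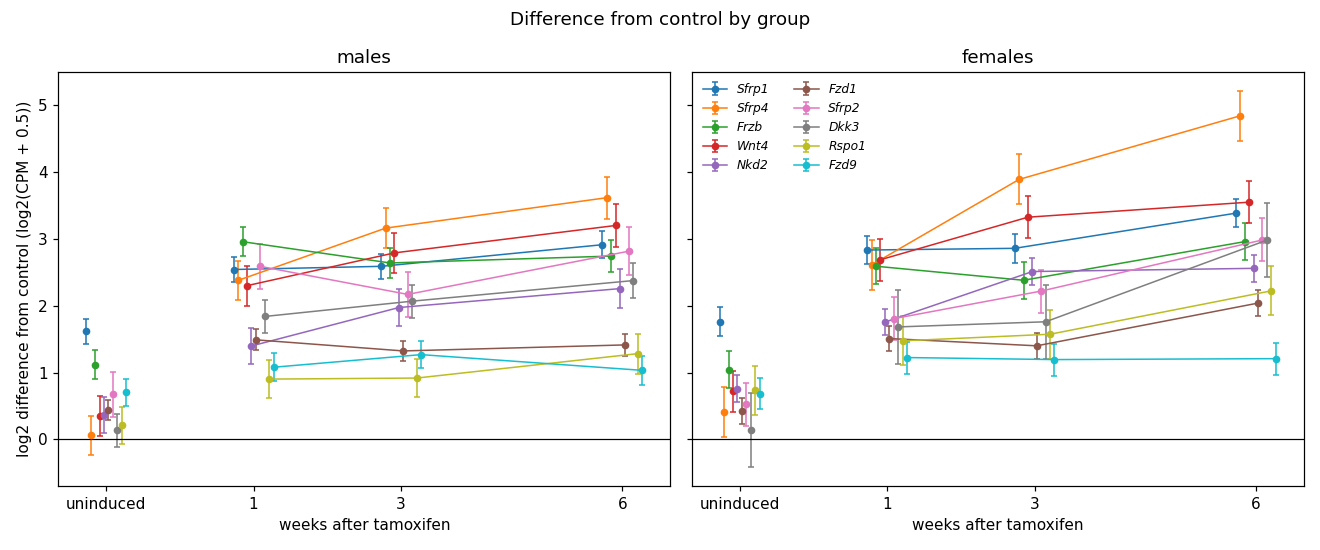
Difference from control on the log2(CPM + 0.5) scale (limma estimate, bars are 1 SE) of the 10 members at least 2-fold higher at 6 weeks in both sexes, for uninduced hearts and for 1, 3 and 6 weeks after tamoxifen. *Sfrp1* and *Frzb* are above 1 in uninduced hearts of both sexes, and female *Sfrp4* moves from 2.61 at 1 week to 4.84 at 6 weeks.

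Some members were called at 1 or 3 weeks and not at 6. *Wnt5b* was higher in males at 1 week by 0.65 ± 0.21 (SE, adjusted p = 0.0239) and differed by -0.10 ± 0.23 (SE, adjusted p = 0.787) at 6 weeks. *Wnt2b* was lower in males at 1 week by 0.80 ± 0.19 on the log2 scale (SE, adjusted p = 0.00331), at 0.8703, 0.876, 1.16 and 0.786 CPM against 1.76, 2.27 and 1.92 CPM in controls. *Lrp5* was lower in males at 1 week (-0.39 ± 0.14, SE, adjusted p = 0.0317) and in females at 3 weeks (-0.53 ± 0.13, SE, adjusted p = 0.00433). *Tcf7l1* was lower in females at 3 weeks (-0.32 ± 0.12, SE, adjusted p = 0.0409), as was *Fzd3* (-0.51 ± 0.18, SE, adjusted p = 0.0338).

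Hearts that carried both transgenes and received no tamoxifen differed from control at *Sfrp1* and *Frzb*. They differ from the controls both in carrying *Rosa26-Il11* and in the lack of tamoxifen, and the 2 cannot be told apart in this comparison. *Sfrp1* was at 42.9, 28.8, 26.4 and 23.5 CPM in uninduced males and at 37.02, 31.8, 43.4 and 43.1 CPM in uninduced females. All 8 values were above every control and below every 6-week heart of the same sex. The difference from control was 1.62 ± 0.19 (SE, adjusted p = 4.46e-05) in males and 1.76 ± 0.21 (SE, adjusted p = 4.19e-05) in females. *Frzb* was at 8.999, 5.96, 6.14 and 4.58 CPM in uninduced males and at 8.71, 6.55, 13.4 and 9.19 CPM in uninduced females, again above every control, with differences of 1.12 ± 0.22 (SE, adjusted p = 0.0168) and 1.04 ± 0.27 (SE, adjusted p = 0.0404). *Nkd2* rose in uninduced females (0.76 ± 0.20, SE, adjusted p = 0.0383), with a male difference of 0.37 ± 0.27 (SE, adjusted p = 0.686).

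In all, 2 of 34 male and 3 of 35 female members rose in uninduced hearts, beside 0.561% and 2.41% of all genes that were higher and 0.0354% and 0.466% that were lower. With a pseudocount of 2, 1 member was called in each sex. Fibroblast markers summed to 1308 to 2036 CPM in uninduced males and 1441 to 1904 in uninduced females, in both cases above all controls. *Sfrp4* was at 0.516, 0.0889, 0.115 and 0.203 CPM in uninduced males and 0.571, 0.228, 0.793 and 0.445 CPM in uninduced females, and its differences of 0.06 ± 0.30 (SE, adjusted p = 0.968) and 0.41 ± 0.38 (SE, adjusted p = 0.651) did not pass.

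Uninduced hearts share the genotype of the 6-week hearts but received no tamoxifen and are labelled baseline. Tamoxifen and time point differ together in this comparison and cannot be told apart. Against them 11 male members were higher and 2 lower at 6 weeks, beside 13.0% of all genes higher and 7.40% lower. In females 14 members were higher and 2 lower, beside 13.7% and 9.08%. With columns rescaled to the same sum, 18 female members were called and all were higher, but the share of all genes under that scaling is not given. *Sfrp4* differed by 3.55 ± 0.30 (SE, adjusted p = 8.28e-08) in males and 4.43 ± 0.38 (SE, adjusted p = 3.19e-08) in females, and *Sfrp1* by 1.30 ± 0.19 (SE, adjusted p = 5.43e-05) and 1.62 ± 0.21 (SE, adjusted p = 9.16e-06). Without the 2 atrial-transcript libraries 11 female members were higher and 2 lower, beside 1954 and 964 of all 16956 genes. *Fzd6* was lower in both sexes (-0.42 ± 0.13, SE, adjusted p = 0.0252 in males and -0.30 ± 0.09, SE, adjusted p = 0.0249 in females).

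A list of 63 other pathway genes gave 12 higher and 13 lower of 55 tested in males at 6 weeks, and 18 higher and 12 lower of 56 in females, with a median log2 difference of -0.10 and -0.01. The shares over all tested genes were 16.2% higher with 10.9% lower for males, and 21.7% with 21.0% for females, so the female share of lower genes in the list was near that of all genes. Of the 7 tested textbook targets of beta-catenin signalling, 5 rose in each sex and *Ccnd1*, cyclin D1, fell in males by 0.51 ± 0.16 on the log2 scale (SE, adjusted p = 0.0237). *Ccn5*, a matricellular protein also called Wisp2, rose from a mean of 4.54 ± 1.77 to 138 ± 12.2 CPM in males (SD, n = 3) and, in females, from 3.14 ± 0.766 to 180.5 ± 35.8 (SD, n = 4), differences of 4.85 ± 0.33 and 5.64 ± 0.27 on the log2 scale (SE, adjusted p = 2.33e-09 and 2.57e-12). *Ccn4*, or Wisp1, rose by 1.03 ± 0.32 in males and 1.67 ± 0.31 in females (log2, SE, adjusted p = 0.0230 and 0.000269), and *Myc* by 2.18 ± 0.27 and 1.60 ± 0.30 (adjusted p = 6.23e-06 and 0.000254). Both *Ccn5* and *Myc* also respond to many signals other than Wnt.

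*Cthrc1*, a secreted protein of activated fibroblasts, rose by 2.03 ± 0.43 in males and 2.90 ± 0.36 in females (log2, SE, adjusted p = 0.00143 and 2.12e-06). *Ptk7*, a pseudokinase co-receptor, rose by 1.17 ± 0.22 and 1.66 ± 0.16 (adjusted p = 0.000471 and 5.91e-08). *Celsr3*, a planar polarity cadherin, fell by 1.47 ± 0.24 in males and by 1.51 ± 0.28 in females (log2, SE, adjusted p = 0.00012 and 0.000221). Of the 12 Dishevelled and planar polarity genes, 4 fell in males and 7 in females, and 1 rose, in females. Of the 12 destruction complex genes, 4 fell in males, and 2 rose and 1 fell in females. These counts stand beside the 10.9% of all genes that were lower in males and the 21.7% higher and 21.0% lower in females, and the female counts of the destruction complex were not above those shares.

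The genes whose levels followed *Sfrp1* most closely over all libraries of a sex (Pearson's r of log2 values, as a description) were *Serpina3n*, *Serpina3i*, *Smoc2*, *Comp* and *Aldh1a2* in males, with r from 0.969 to 0.983 over 18 libraries. In females they were *C4a*, *C1s1*, *C3*, *Bmper* and *Gfra1*, with r from 0.981 to 0.986 over 20 libraries. The libraries share the group structure of the study, so a gene that rose with induction can have a high value.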

How the data were processed

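PolyA RNA libraries of single mouse hearts were aligned by the authors to GRCm39 with STAR and counted per gene with featureCounts. The deposited values, 1 table per sex, are a signal: CPM scaled by a factor for each library, so that column sums differ between libraries. Every value was a whole number of reads within a tolerance of 0.001, so read counts could be recovered for the edgeR (4.0.16) and DESeq2 (1.42.0) alternatives.

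Of 40 libraries, 38 were used, since 2 male libraries carry conflicting labels. Genes at 0.5 CPM or more in at least 3 libraries were kept. Within each sex all groups were fitted with limma (3.58.1, R 4.3.3, trend) on log2(CPM + 0.5), and p-values were adjusted by Benjamini-Hochberg over all tested genes, with a threshold of 0.05. The script was tested on simulated data. The members and lists were chosen with earlier results of these data known. Values per library are given for members that passed in both sexes at 6 weeks, in 1 direction, and differed by at least 1 on the log2 scale, and for the pathway outputs and feedback genes, and members called in 1 sex are named with both sexes' values. Other members and genes were named after their values were seen. Promoters are from RefSeq on GRCm38.p6, positions from GENCODE on GRCm39. Alternatives covered pseudocount, filter, scaling, test, replicate block, each replicate number left out, and the placement of the 2 conflicting libraries.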

Additional observations from a re-analysis of the deposited data

Results flagged for a closer look

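Among 24 members and 192 groups of 4 libraries checked, 15 held 1 library whose gap to the nearest other exceeded Dixon's critical value, where chance gives about 1 in 20. In females, 5 of the 15 were the libraries with atrial transcripts: 1-week replicate 2 for *Dkk3* (41.48 CPM), *Frzb* (53.12), *Nkd1* (3.199) and *Wif1* (9.672), and 6-week replicate 2 for *Wif1* (10.35). The part of atrial tissue in these values was not tested. The female 3-week replicate 2 was lowest for both *Sfrp1* (56.16 CPM) and *Frzb* (17.9). The other female values were *Nkd1* in 3-week replicate 4 (1.44 CPM) and *Znrf3* in control replicate 3 (6.354 CPM).

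In males, 1-week replicate 1 stood apart for *Fzd1* (23.97 CPM) and for *Wnt5a* (3.448 CPM). The remaining male values were *Nkd1* in 1-week replicate 4 (1.835 CPM), *Nkd2* in uninduced replicate 1 (3.614 CPM), *Wif1* in 3-week replicate 2 (0.4775 CPM) and *Wnt10b* in 3-week replicate 1 (1.041 CPM).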

How the results depend on the processing

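Over all comparisons, 171 of the counts of members called under an alternative were within 1.5 times the reported count and 27 were not. The 2 male libraries with conflicting labels mattered most. Placed by their titles and tags, they left 9 members called at 1 week. By limma they left 0 at 3 weeks, at 6 weeks, in uninduced hearts and at 6 weeks against uninduced. In these last comparisons 17, 13, 2 and 12 members had an unadjusted p under 0.05. Shares of all genes under that placement are not given, so these counts cannot be set against the background. The cause of the lost calls was not tested. Placed by their descriptions, they gave 2 calls at 6 weeks against 1 week, and the male differences of *Rspo1* (0.71, adjusted p = 0.1004) and *Fzd4* (-0.38, adjusted p = 0.0886) did not pass. Male *Wnt2b* (-0.50, adjusted p = 0.0313) and *Znrf3* (-0.36, adjusted p = 0.0482) passed anew as lower under that placement. A pseudocount of 2 gave 1 call in uninduced males and 1 in uninduced females, and 3 in females between 6 weeks and 1 week. A fit of only the 2 groups compared gave 1 call in uninduced males. DESeq2 gave 1 call in males and 3 in females between 6 weeks and 1 week, and 5 in uninduced females. A minimum log2 difference of 1 left, as it must leave fewer, 10 members at 1 week and 8 at 6 weeks against uninduced in males, and 10 at 3 weeks, 10 at 6 weeks and 9 at 6 weeks against uninduced in females. Without the 2 female libraries with atrial transcripts, 2 were called between 6 weeks and 1 week, beside 140 higher and 24 lower of all 16956 genes.

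With each replicate number left out in turn, males had 12 to 15 calls at 1 week, 11 to 15 at 3 weeks, 14 to 16 at 6 weeks, 1 to 3 in uninduced hearts, 10 to 12 at 6 weeks against uninduced and 0 to 1 between 6 weeks and 1 week. Females had 10 to 13, 12 to 14, 16 to 18, 1 to 2, 12 to 15 and 1 to 2. The count of 12 in males at 1 week came without replicate 3, and the 2 female calls between 6 weeks and 1 week came without replicate 2. Uninduced males had 1 call without replicate 1 or 3, and uninduced females 1 without replicate 1, 3 or 4.

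Of the single-gene values at 6 weeks, 723 kept their direction and side of the threshold, 48 no longer passed, 12 passed anew and 7 changed sign, each of the 7 a difference that did not pass. These were male *Nkd1* without replicate 3 (-0.0011, with up to 0.6295 without replicate 4), male *Fzd7* without replicate 4 (-0.0598, with up to 0.2596 without replicate 3), male *Axin2* under the titles and tags (0.0857), female *Fzd3* (0.15) and *Znrf3* (0.0098) with columns rescaled to the same sum, and female *Wif1* by edgeR (0.12) and DESeq2 (0.19).

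Same-numbered replicates did not deviate together on average. Their mean correlation was 0.0132 over 33 pairs in males (-0.134 to 0.256) and 0.0255 over 40 pairs in females (-0.342 to 0.563). A mean cannot show whether single numbers pair some of the mice. A replicate block gave 18, 14, 17, 2, 12 and 0 calls in males and 14, 15, 18, 3, 16 and 1 in females for 1, 3 and 6 weeks and uninduced against control, 6 weeks against uninduced and 6 weeks against 1 week. Depth limits the members under 1 CPM, where the pseudocount compresses differences.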
